A study of Homo sapiens with 9 samples.

Results

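The distal part of cytoband 19q13.4, the last stretch of the long arm of human chromosome 19, carries a dense array of zinc finger genes with symbols such as ZNF331. From the deposited counts per gene, the protein-coding genes named ZNF with a number whose start lay at or beyond 50 Mb on chromosome 19 (hg19) were taken. There were 99 of them among the 57820 genes counted, 56 on the plus strand and 43 on the minus strand, between 50.5 and 59.0 Mb. They were taken by name and position, by a rule set with earlier results of these data known, and ZNF331 was among them. The symbol ZNF8 stands under 2 identifiers, so the 99 entries carried 98 symbols.

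Chrom-seq labels RNA close to a chromatin mark in living cells. A chromatin reader fused to SunTag epitopes gathers the peroxidase APEX2, which attaches biotin to RNA nearby, and the biotinylated RNA is captured on streptavidin beads. By the study's methods, polyadenylated RNA is then selected from it, fragmented, reverse transcribed with random primers and sequenced. All 9 libraries came from HEK293T, an established human embryonic kidney cell line expressing the epitope and APEX2 constructs for 48 hours, incubated with biotin-aniline (500 μM, 30 min) and then with hydrogen peroxide (1 mM, 1 min). The CBX1 group (3 libraries) carried the chromodomain of CBX1, a heterochromatin protein that binds the histone mark H3K9me3, the CBX1_W42A group (3 libraries) carried the same reader with the amino acid change W42A, and the control group (3 libraries) carried no reader. The labels of all 9 libraries include NLS. The readers were expressed from introduced constructs beside the cells' own CBX1. The study calls its CBX1 replicates independent, but whether they were separate cultures is not given in the sources used here, so p-values measure the spread between these libraries, which may be partly technical. Whether the CBX1_W42A libraries were prepared or sequenced together with the others is not given in those sources either, so a difference of preparation and a difference of reader cannot be told apart in comparisons with CBX1_W42A. The total count per library was 8379542 to 10839843 in the control group, 8703898 to 9970364 with CBX1 and 9304636 to 11082852 with CBX1_W42A.

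C2H2 zinc finger proteins bind DNA through arrays of fingers, each held by a zinc ion between a pair of cysteines and a pair of histidines. Many of the family on chromosome 19 also carry a KRAB domain, through which the corepressor TRIM28 and the methyltransferase SETDB1 are recruited to deposit H3K9me3. The genes of the family are themselves known to be covered by H3K9me3 and HP1 proteins such as CBX1, mainly over the exons near their 3′ ends that encode the fingers. Those exons are repeats of one unit, and the units of neighbouring genes resemble each other because the clusters grew by duplication.

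The finger repeats are shown for 4 members on which the comparisons turned, as the coding strand of the first stretch of consecutive fingers that lay in 1 exon. ZNF331, ZNF528 and ZNF418 were higher with CBX1, and ZNF787 was among the most abundant members that did not pass the test. Each stretch is 147 bases of coding exon in hg19, runs from the first cysteine of one finger to the last histidine of the next, and has in capitals the 15 bases that encode the linker between the fingers.
ZNF331: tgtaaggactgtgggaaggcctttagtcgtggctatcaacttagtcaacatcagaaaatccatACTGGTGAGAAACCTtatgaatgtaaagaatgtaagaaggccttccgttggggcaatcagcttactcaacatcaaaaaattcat
ZNF528: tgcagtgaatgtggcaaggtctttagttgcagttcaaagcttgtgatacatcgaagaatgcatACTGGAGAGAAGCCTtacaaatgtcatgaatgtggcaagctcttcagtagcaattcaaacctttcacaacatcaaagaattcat
ZNF418: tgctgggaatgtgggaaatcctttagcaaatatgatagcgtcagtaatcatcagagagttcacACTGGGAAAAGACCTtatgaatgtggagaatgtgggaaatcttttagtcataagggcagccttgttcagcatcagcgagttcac
ZNF787: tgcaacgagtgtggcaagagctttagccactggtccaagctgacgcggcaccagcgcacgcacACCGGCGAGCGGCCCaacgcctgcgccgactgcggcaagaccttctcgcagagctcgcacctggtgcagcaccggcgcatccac
They lie at chr19:54080211-54080357 on the plus strand (ZNF331), chr19:52918748-52918894 on the plus strand (ZNF528), chr19:58438709-58438855 on the minus strand (ZNF418) and chr19:56600193-56600339 on the minus strand (ZNF787). The GC content was 40.1%, 39.5%, 42.9% and 67.3% in that order. ZNF787 does not stand for the abundant members that did not pass in this respect. Its exons had 65.4% GC and those of ZNF444 58.6%, but those of ZNF473, ZNF160 and ZNF766 had 49.6%, 44.3% and 43.0%. Base by base, 67.3% of the ZNF528 stretch, 60.5% of the ZNF418 stretch and 52.4% of the ZNF787 stretch was identical to ZNF331.

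The labels of the members were borne out by their coding sequences. Of the 96 members whose coding sequence was read, 95 held at least 1 C2H2 finger, with a median of 12 and a maximum of 26 fingers. A stretch resembling the KRAB A box stood near the start of the protein in 72 of them. This pattern is narrow and misses some KRAB proteins, so the 24 others are a mixed group. The members were 3.12 to 96.4 kb long, with a median of 21.1 kb.

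Of the 99 members, 73 had enough counts to be tested between CBX1 and control, where a gene needed a sum above 18 counts in the 6 libraries compared. Another 8 had 4 to 15 counts over all 9 libraries, and 18 had no count in any library. Of these 18, 16 had under 5% of their span free of other genes on the same strand, which in the counts looks as it would if a read that overlapped several genes were assigned to none, so their 0 counts were not read as an absence of RNA. Of the members with so little free span, ZNF544 and ZNF497 did have counts, 74 and 4 over the 9 libraries. The 16 included ZNF816, ZNF419, ZNF417, ZNF17 and both ZNF8 entries (ENSG00000083842.8 and ENSG00000273439.1), which were named here after their values were seen. The remaining 2, ZNF677 and ZNF835, lay alone on their strand and also had 0 counts. By contrast, 38 of the 42 members with a gene on the opposite strand in their span had counts.

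Between genes, levels were compared as CPM (counts scaled to the library's size) per kb of listed span, introns included, because exons and introns were counted together. The 5 highest members over the 9 libraries were ZNF579 (4.43 CPM per kb), ZNF324 (2.82), ZNF134 (2.70), ZNF473 (2.69) and ZNF304 (2.62). This scale lowers genes with long introns, and an order by exon length would differ. ZNF331 and ZNF787, at 83.3 and 68.8 CPM over the 9 libraries, have spans of 59289 and 33918 bases but exons of 8686 and 3689 bases. ZNF579, at 14.7 CPM, has a span of 3313 bases and exons of 3320 bases. The median over the 73 members tested was 0.727 CPM per kb in the control libraries. In those libraries ZNF579 stood at 4.19 ± 0.724 CPM per kb and ZNF473 at 3.08 ± 0.129 (SD, n = 3). ZNF579 and ZNF324 shared 16.8% and 28.5% of the 100-base stretches of their transcripts with other genes, so the reads behind their levels may be divided between genes. For ZNF324 the main such gene was its neighbour ZNF446, which starts at 58985384, just beyond the end of ZNF324 at 58984945. Whether the shared stretches are copies or overlapping transcripts of neighbours was not tested. As measured at the edge of the chosen stretch, ZNF114, the last ZNF gene before 50 Mb, had 7.37 ± 1.64 CPM in the control libraries and 6.65 ± 0.986 CPM with CBX1 (SD, n = 3). ZNF473, the first beyond it, had 85.2 ± 3.58 CPM and 68.7 ± 6.85 CPM.

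The first comparison asked which of these RNAs were captured more with the CBX1 reader than without a reader. ZNF transcripts of the region leaned upward with CBX1. Of the 73 members tested, 9 were enriched, meaning an adjusted p under 0.05 by edgeR's quasi-likelihood test together with a log2 fold change at or above 0.75, which is 12.3% against 7.06% of all 18837 genes tested. None was depleted by the same limits, against 0.34% of all genes. At an adjusted p under 0.05 of any size, 22 members were higher, against 10.6% of all genes, and 0 were lower, against 9.46%. DESeq2 also called 0 members lower, and at an unadjusted p under 0.05 by edgeR's test 3 were lower (ZNF473, ZNF524 and ZNF552, the last named after its values were seen). Every CBX1 library lay below every control library in 7 members, against 20.3% of all genes. The fold change was above 0 on the log2 scale in 61 of the 73, with a median of 0.34, where the median of all genes tested was 0.03. The libraries held RNA after capture, and no RNA from before capture was analysed here, so a higher level in the cells and a higher capture cannot be told apart.

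ZNF331 (ENSG00000130844.12, chr19:54024235-54083523, plus strand), a KRAB zinc finger gene known to be imprinted, had the smallest adjusted p of the members. It stood at 48.9, 61.1 and 53.6 CPM in the control libraries, 132, 137 and 119 CPM with CBX1 and 60.9, 73.1 and 64.6 CPM with CBX1_W42A. All CBX1 libraries lay well above the other 6, and those of the control and CBX1_W42A groups overlapped. The means were 54.6 ± 6.17, 129 ± 9.06 and 66.2 ± 6.29 CPM (SD, n = 3). The log2 fold change of CBX1 against control was 1.27 ± 0.10 (SE, adjusted p = 4.88e-06).

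ZNF528 (chr19:52901102-52921665, plus strand), with 15 fingers, changed most among the enriched members. It stood at 0.877, 1.36 and 0.849 CPM in the control libraries, 7.0, 5.99 and 6.57 CPM with CBX1 and 1.64, 1.89 and 0.952 CPM with CBX1_W42A. With 7 to 12 counts in each control library and 54 to 68 in each CBX1 library, its log2 fold change was 2.68 ± 0.30 (SE, adjusted p = 2.68e-05), and the CBX1 libraries did not overlap the others. Per kb its level was low, at 0.317 CPM per kb with CBX1, where ZNF331 had 2.18. ZNF418 (chr19:58433252-58446761, minus strand), with 16 fingers, also had its CBX1 libraries above the other 6. It stood at 2.05, 1.47 and 1.82 CPM in the control libraries, 6.0, 5.21 and 5.61 CPM with CBX1 and 1.36, 2.84 and 0.846 CPM with CBX1_W42A. Its log2 fold change against control was 1.67 ± 0.27 (SE, adjusted p = 0.000686).

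**Figure D1:**
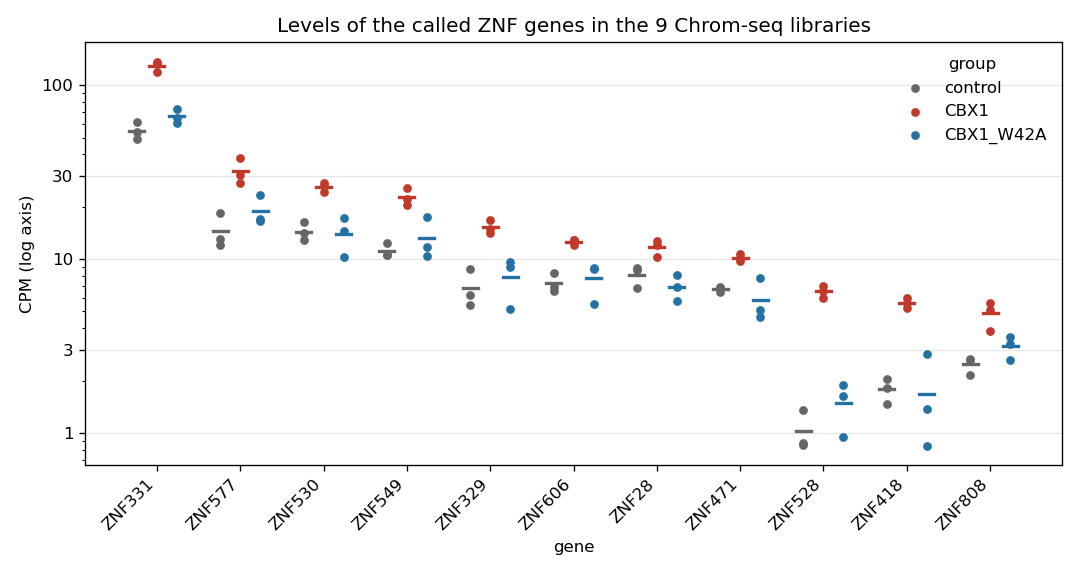
CPM on a log axis for each gene called higher with CBX1 against control or against CBX1_W42A. Each point is 1 library, coloured by group, and the horizontal bars are group means (n = 3). ZNF331 lies highest, between 48.9 and 137 CPM, and its CBX1 libraries lie above the other 6.

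Enriched members also stood at either end of the region. ZNF577 (chr19:52359055-52394203, minus strand) stood at 12, 18.3 and 13.1 CPM in the control libraries, 38.1, 30.5 and 27.5 CPM with CBX1 and 17.1, 23.3 and 16.5 CPM with CBX1_W42A, with a log2 fold change against control of 1.17 ± 0.16 (SE, adjusted p = 0.000201). ZNF549 (chr19:58038693-58068910, plus strand) stood at 10.5, 10.6 and 12.4 CPM in the control libraries, 20.4, 25.6 and 22 CPM with CBX1 and 11.7, 17.6 and 10.4 CPM with CBX1_W42A, with 1.05 ± 0.15 (adjusted p = 0.000186). In both, the CBX1 libraries lay wholly above those of control. ZNF550 lies on the opposite strand within the span of ZNF549. ZNF530 (chr19:58111253-58124090, plus strand) stood at 12.9, 16.3 and 14.1 CPM in the control libraries, 24.2, 26.4 and 27.4 CPM with CBX1 and 10.3, 17.2 and 14.5 CPM with CBX1_W42A, and its log2 fold change was 0.88 ± 0.13 (adjusted p = 0.000404). ZNF329 (chr19:58637619-58666477, minus strand) stood at 6.23, 8.82 and 5.46 CPM in the control libraries, 16.9, 15 and 14.2 CPM with CBX1 and 5.18, 9.58 and 8.99 CPM with CBX1_W42A, and its log2 fold change was 1.19 ± 0.19 (adjusted p = 0.000509). Both had CBX1 libraries clear of the other 6.

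The remaining pair was less stable. ZNF606 (chr19:58488421-58514717, minus strand) stood at 6.53, 8.36 and 6.92 CPM in the control libraries, 12.9, 12.9 and 12.1 CPM with CBX1 and 8.82, 8.95 and 5.50 CPM with CBX1_W42A, and its log2 fold change of 0.82 ± 0.17 (SE, adjusted p = 0.00334) was the smallest of the 9. ZNF808 (chr19:53030905-53067717, plus strand), the longest array of the 9 with 23 fingers, stood at 2.63, 2.15 and 2.67 CPM in the control libraries, 5.11, 3.88 and 5.61 CPM with CBX1 and 3.55, 3.26 and 2.64 CPM with CBX1_W42A, with a log2 fold change of 1.00 ± 0.27 (SE, adjusted p = 0.0166). Only 76.5% of its span was free of other genes on its strand. Its call ended without CBX1 replicate 1 (log2 fold change 0.97, adjusted p = 0.0527) and without CBX1 replicate 3 (0.88, adjusted p = 0.0801), and with cyclic loess offsets it was 0.66 (adjusted p = 0.123). ZNF606 fell below 0.75 without control replicate 1 and with cyclic loess offsets, at 0.68 in its lowest setting. For the 9 enriched members, at most 2.62% of the 100-base stretches of their transcripts was shared with genes that do not overlap them.

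Another 13 members were higher with CBX1 by less than 0.75, at log2 fold changes of 0.37 to 0.71 and adjusted p-values of 0.000959 to 0.0386. ZNF134 was one of them, at 21.2, 24.5 and 21.4 CPM in the control libraries, 32.7, 32.4 and 29.1 CPM with CBX1 and 17.3, 25.7 and 17.8 CPM with CBX1_W42A, with a log2 fold change of 0.51 ± 0.12 (SE, adjusted p = 0.00641). ZNF274, named here after its values were seen, is a member known for bringing SETDB1 to the 3′ ends of ZNF genes. It stood at 52, 69.2 and 66.1 CPM in the control libraries, 98.6, 88.3 and 82.2 CPM with CBX1 and 59.7, 61.8 and 63.3 CPM with CBX1_W42A, with a log2 fold change of 0.55 ± 0.11 (adjusted p = 0.00351). ZNF587, also named after its values were seen, had 0.69 ± 0.12 (adjusted p = 0.000959), but only 40.4% of its span was free on its strand and more than 10% of its transcripts' 100-base stretches was shared with other genes. In 4 further members, ZNF610, ZNF880, ZNF600 and ZNF135, named after their values were seen, the log2 fold change was 0.75 or more but the adjusted p was 0.0804, 0.0937, 0.378 and 0.223. None of these 4 had a mean above 0.858 CPM over the 9 libraries, and a difference was not detectable at this depth. ZNF610, ZNF600 and ZNF135 passed the filter on counts mainly through their CBX1 libraries. They had 1 to 2, 1 to 4 and 1 to 5 counts in each control library and 5 to 9, 3 to 8 and 4 to 12 with CBX1. This favours a fold change above 0, and all of them are among the 61 members above 0. ZNF610 had too few counts to be tested in CBX1_W42A against control.

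Among the most abundant members were several that missed the threshold. ZNF473, which encodes a protein that acts in the processing of histone mRNAs with the U7 snRNP, stood at 81.1, 86.7 and 87.8 CPM in the control libraries, 73.8, 71.3 and 60.9 CPM with CBX1 and 66.9, 83.5 and 58.7 CPM with CBX1_W42A. Its CBX1 libraries lay below every control library, with a log2 fold change of -0.29 ± 0.10 (SE, adjusted p = 0.0504), just outside the limit. With RLE factors (adjusted p = 0.0471), without the filter on low counts (0.0471) and with the exon GC trend removed (0.0322) it passed, at -0.29, -0.29 and -0.32. ZNF787 stood at 68.2, 70.6 and 68.9 CPM in the control libraries, 63.9, 67.2 and 67.3 CPM with CBX1 and 66.9, 64.8 and 81.8 CPM with CBX1_W42A, with a log2 fold change of -0.04 ± 0.09 (adjusted p = 0.790). ZNF444 stood at 47.0 ± 8.72 CPM in control and 53.2 ± 2.38 CPM with CBX1 (SD, n = 3), a log2 fold change of 0.21 ± 0.12 (adjusted p = 0.250). ZNF160 stood at 37.5 ± 2.01 and 35.9 ± 0.357 CPM, with -0.03 ± 0.10 (adjusted p = 0.848), and ZNF766 at 35.7 ± 4.06 and 40.8 ± 1.04 CPM, with 0.22 ± 0.11 (adjusted p = 0.166).

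Of the 5 genes highest per kb of listed span, ZNF134 alone passed the test as higher with CBX1, by less than 0.75. Against control, ZNF579 had a log2 fold change of 0.04 ± 0.17 (adjusted p = 0.889), ZNF324 of 0.12 ± 0.15 (adjusted p = 0.600) and ZNF304, which encodes a KRAB protein known to recruit TRIM28 to silenced genes, of 0.00 ± 0.13 (adjusted p = 1.00). The lowest fold change of all members was that of ZNF524, named after its values were seen, at 4.48, 4.29 and 4.61 CPM in the control libraries, 1.89, 3.44 and 2.32 CPM with CBX1 and 4.09, 2.21 and 4.44 CPM with CBX1_W42A. Its log2 fold change of -0.78 ± 0.28 had an adjusted p of 0.0610. It passed as depleted with cyclic loess offsets (-1.12, adjusted p = 0.0180), with the exon GC trend removed (-0.87, adjusted p = 0.0420) and without CBX1 replicate 2 (-1.05, adjusted p = 0.0352).

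No enriched member was next to another in the order of the members, but they stood in separate stretches. ZNF577, ZNF528, ZNF808 and ZNF331 started from 52359055 to 54024235. ZNF549, ZNF530, ZNF418, ZNF606 and ZNF329 started from 58038693 to 58637619, and no enriched member started between these stretches. Among the 38 members that start from 52.1 to 54 Mb, 4 of 27 members tested were enriched and the median log2 fold change was 0.34. Among the 44 that start from 57.7 Mb on, 5 of 32 were enriched, with a median of 0.39. Among the 16 that start from 56 to 57.2 Mb, 0 of 13 were enriched, 3 were higher at an adjusted p under 0.05, and the median was 0.14. ZNF473 was the one member before them. These counts were not tested against each other.

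**Figure D2:**
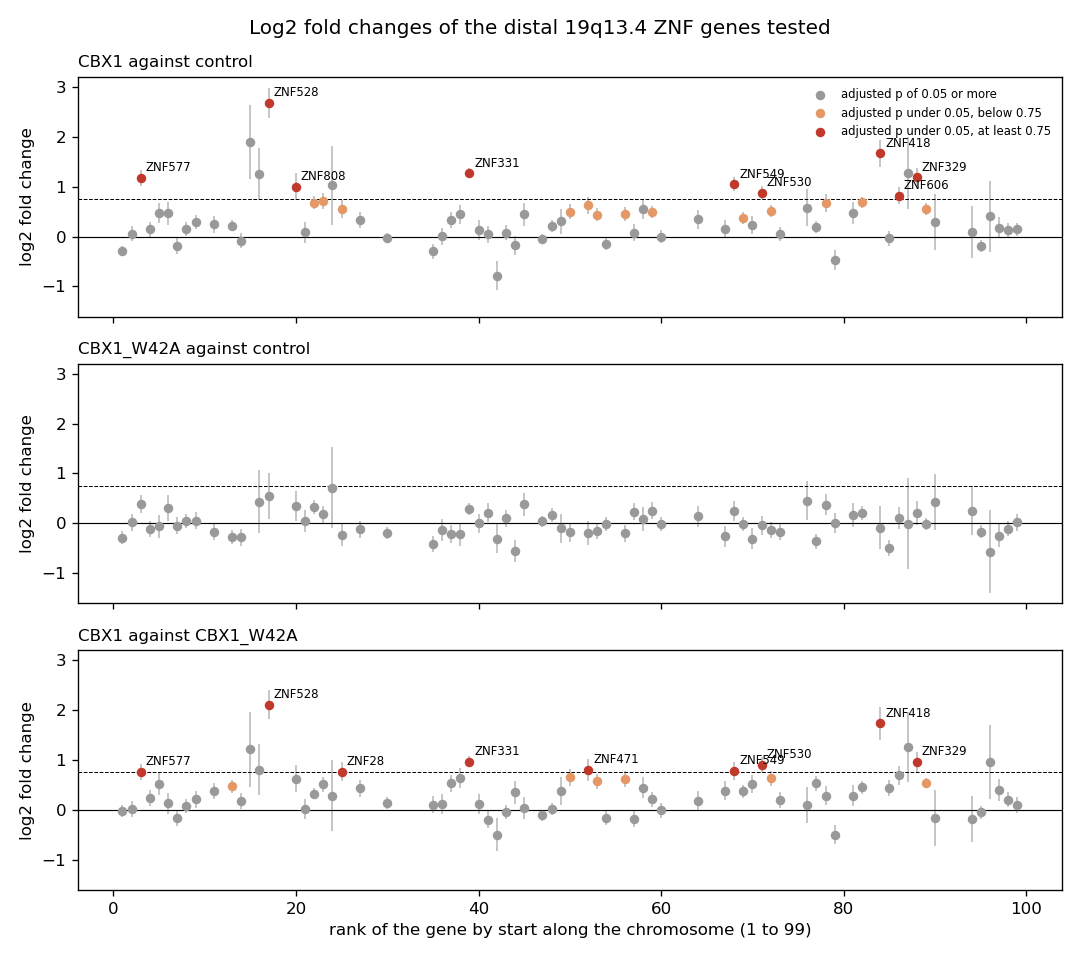
Log2 fold change (point) with its standard error (bar) for each member tested, in the order of the genes along the chromosome, in the 3 comparisons. Points past the test are coloured, and the dashed line marks 0.75. Most points lie above 0 in the comparisons of CBX1 with the other groups (61 of 73 and 60 of 73), and 33 of 72 do so with CBX1_W42A against control.

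The members that start from 56 to 57.2 Mb also differed in base composition. Of these 16, 11 had exons of at least 50% GC, and the 9 of these that were tested (ZNF628, ZNF579, ZNF524, ZNF865, ZNF784, ZNF580, ZNF787, ZNF444 and ZNF71, named after their values were seen) had 52.9% to 70.9%. Their log2 fold changes against control ran from -0.78 to 0.44. Over the whole region, all 9 enriched members were among the 57 tested members with exons under 50% GC, whose median log2 fold change was 0.44. Among the 16 with at least 50%, 0 were enriched, 1 passed the test as higher and the median was 0.11. With the trend of fold change on exon GC content over all genes removed, the same 9 members were enriched. The part of base composition in the difference was not tested.

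**Figure D3:**
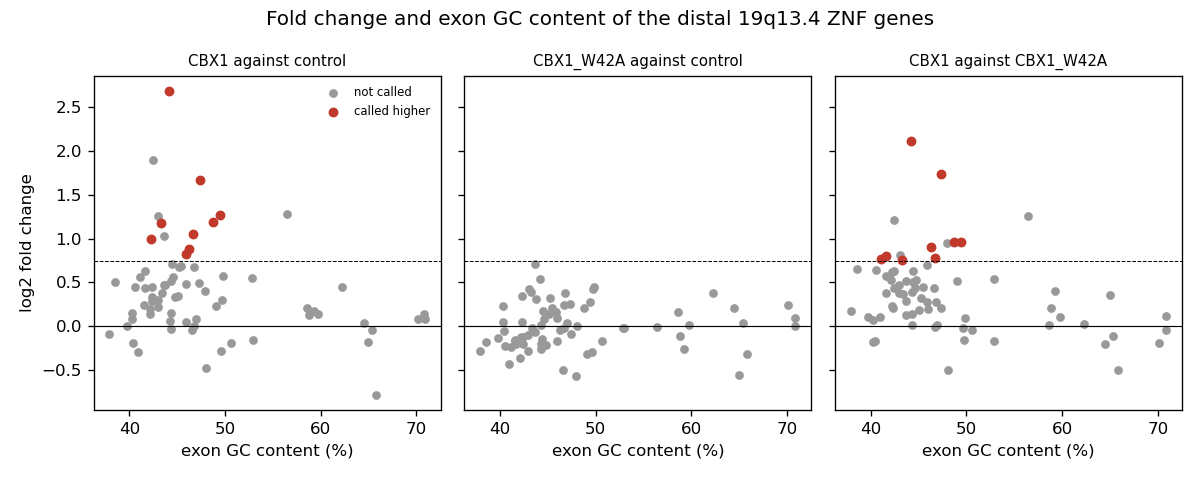
Log2 fold change against exon GC content (percent) of each member tested, in the 3 comparisons, with members past the test and at or above 0.75 in red and the dashed line at 0.75. The members in red lie below 50% GC.

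By protein features, 7 of 51 tested members with a KRAB A box-like stretch were enriched, with a median log2 fold change of 0.37, and 2 of the 21 without it, with a median of 0.14. The latter had a median exon GC content of 58.2%, against 44.3% in the former, so these features moved together. On the plus strand 5 of 45 were enriched and on the minus strand 4 of 28. By level, 5 of 37 were enriched at or below the median CPM of the members tested and 4 of 36 above it. Of the 56 tested members with at least 90% of the span free on the strand and under 10% of transcript stretches shared, 8 were enriched and the median was 0.39.

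The same upward lean was seen in the ZNF genes of chromosome 19 below 50 Mb, of which 27 of 114 tested were enriched, with a median log2 fold change of 0.43. Among ZNF genes outside chromosome 19, 10 of 226 were enriched, with a median of 0.05, and 16 passed the test as lower. The other protein-coding genes from 50 Mb of chromosome 19 had 17 of 126 enriched, with a median of 0.18. In percent, 23.7% of the tested ZNF genes below 50 Mb and 13.5% of the other protein-coding genes from 50 Mb were enriched, against 12.3% of the distal ZNF genes. Both sets were thus enriched at least as often as the distal ZNF genes. The median of the distal ZNF genes, 0.34, lay between those of these sets. The sets were not tested against each other.

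**Figure D4:**
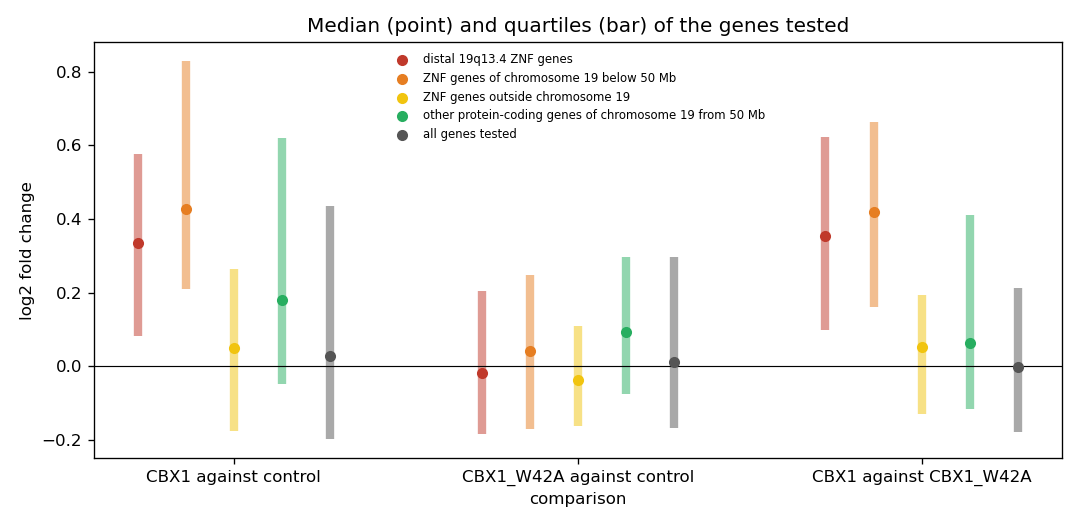
Median (point) and quartiles (bar) of the log2 fold change over the genes tested, for the distal 19q13.4 ZNF genes, 3 other sets and all genes, in the 3 comparisons. The distal genes have medians of 0.34, -0.02 and 0.35, and all genes 0.03, 0.01 and -0.00382.

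The second comparison, of CBX1_W42A with control, asked whether these RNAs stood higher or lower with the altered reader than without a reader. No member passed the test. Of 72 tested by edgeR's quasi-likelihood test, 0 were enriched, against 0.974% of all 18680 genes, 0 were depleted, against 0.0214%, and 0 had an adjusted p under 0.05 in either direction, against 1.37% of all genes higher and 1.25% lower. At an unadjusted p under 0.05 there were 3 higher and 5 lower, where 19.3% of all genes had such a p. DESeq2 also called 0 members. The median log2 fold change was -0.02, beside 0.01 over all genes, and the values ran from -0.57 to 0.71. The smallest adjusted p was 0.108, for ZNF256, named after its values were seen, with a log2 fold change of -0.50 ± 0.17.

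For the members enriched with CBX1, the CBX1_W42A values against control were smaller. These members were picked by high values with CBX1 against the same control libraries. Smaller values in another group would follow in part from that choice. ZNF331 had a log2 fold change of 0.28 ± 0.12 (SE, adjusted p = 0.203), ZNF577 of 0.39 ± 0.18 (0.243), ZNF528 of 0.54 ± 0.46 (0.552) and ZNF418 of -0.09 ± 0.44 (0.937). Over the 9, these values lay between -0.09 and 0.54, with a median of 0.24, and none passed the test. ZNF528 and ZNF418 had 8 to 27 counts in each CBX1_W42A library, and their standard errors were the widest of the 9.

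The third comparison set CBX1 directly against CBX1_W42A, which tests the difference between these 2 groups of libraries, preparation included. It shares its CBX1 libraries with the first comparison, so the 2 are not independent. Of 73 members tested, 9 were higher with CBX1 by the same limits, which is 12.3% against 0.795% of all 19360 genes, and 0 were lower, against 0.201%. At an adjusted p under 0.05 of any size, 15 were higher, against 1.32% of all genes, and 0 were lower, against 0.925%. DESeq2 also called 0 lower, and by edgeR's test 1, ZNF552, was lower at an unadjusted p under 0.05. The median log2 fold change was 0.35, beside -0.00382 over all genes. ZNF610, ZNF135 and ZNF132, the last named after its values were seen, passed the filter here mainly through their CBX1 libraries. They had 5 to 9, 4 to 12 and 4 to 6 counts in each CBX1 library and 0 to 5, 1 to 5 and 2 to 4 with CBX1_W42A. This favours a fold change above 0 for them. The ZNF genes of chromosome 19 below 50 Mb showed much the same, with 13 of 116 higher by the same limits (11.2%) and a median of 0.42. Outside chromosome 19, 6 of 228 ZNF genes were higher, with a median of 0.05. Of the other protein-coding genes from 50 Mb, 6 of 128 were higher, with a median of 0.06. These sets were not tested against each other. Every CBX1 library lay above every CBX1_W42A library in 30 of the 73, against 10.3% of all genes, and against control the same held in 29 of 73, against 17.6%. With CBX1_W42A against control it held in 1 of 72, against 12%.

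The largest differences were again those of ZNF528, at 2.11 ± 0.29 on the log2 scale (SE, adjusted p = 0.000635), and ZNF418, at 1.73 ± 0.34 (adjusted p = 0.00733). ZNF331 differed by 0.96 ± 0.11 (adjusted p = 5.28e-05), the smallest adjusted p of the members. ZNF530 differed by 0.90 ± 0.16 (0.00403), ZNF329 by 0.96 ± 0.20 (0.0125), ZNF549 by 0.78 ± 0.17 (0.0196) and ZNF577 by 0.76 ± 0.15 (0.0104), with the adjusted p in brackets. The other enriched members did not pass here, ZNF606 with 0.69 ± 0.19 (adjusted p = 0.0610) and ZNF808 with 0.62 ± 0.27 (adjusted p = 0.238).

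ZNF28 and ZNF471 were called against CBX1_W42A and stood under 0.75 against control. ZNF28 (chr19:53300662-53360853, minus strand) stood at 6.82, 8.70 and 8.86 CPM in the control libraries, 10.3, 12.6 and 12.1 CPM with CBX1 and 5.73, 8.10 and 6.88 CPM with CBX1_W42A. Its log2 difference was 0.76 ± 0.19 (SE, adjusted p = 0.0384), and its log2 fold change against control was 0.56 ± 0.18 (adjusted p = 0.0343). Against control it missed the test without control replicate 1 (adjusted p = 0.133), CBX1 replicate 2 (0.1004) and CBX1 replicate 3 (0.104), with DESeq2 (0.0617), with the replicate number as a block (0.0571), and with cyclic loess offsets (0.134). ZNF468 lies within it on the same strand, and 67.4% of its span was free. ZNF471 (chr19:57019212-57041590, plus strand), added after its values were seen and known for promoter methylation in tumours, stood at 6.43, 6.78 and 6.92 CPM in the control libraries, 10.1, 9.76 and 10.6 CPM with CBX1 and 5.09, 7.79 and 4.65 CPM with CBX1_W42A, with a log2 difference of 0.80 ± 0.21 (adjusted p = 0.0482). ZNF766 and ZNF134 also passed as higher, by 0.47 ± 0.13 (adjusted p = 0.0482) and 0.63 ± 0.15 (adjusted p = 0.0259).

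The calls in this comparison depended on single libraries and, for some members, on the processing. Without CBX1_W42A replicate 1 it was 3 members, without CBX1_W42A replicate 3 it was 5, without CBX1 replicate 1 it was 5 and without CBX1_W42A replicate 2 it was 12. CBX1_W42A replicate 2 stood nearer the CBX1 libraries than the other CBX1_W42A libraries did. The median level of the 73 members tested against control was 14.3 CPM in it, 11.7 and 10.9 CPM in CBX1_W42A replicates 1 and 3, 14.2 to 16.6 CPM with CBX1 and 12 to 13.3 CPM in control. Several calls ended without 1 library. ZNF577 missed the test without CBX1 replicate 1 (adjusted p = 0.0945) and CBX1_W42A replicate 3 (0.0531), and ZNF329 without CBX1 replicate 1 (0.0758) and CBX1_W42A replicate 1 (0.0535). ZNF577 and ZNF530 also fell below 0.75 without CBX1_W42A replicate 1, ZNF530 to 0.72. ZNF549 missed it without CBX1 replicate 2 (0.0604), CBX1 replicate 3 (0.0633), CBX1_W42A replicate 1 (0.0658) and CBX1_W42A replicate 3 (0.0884). ZNF28, ZNF471, ZNF134 and ZNF766 missed it without any 1 of CBX1 replicates 1, 2 and 3 and CBX1_W42A replicates 1 and 3. With cyclic loess offsets 7 members were called, and ZNF28 (adjusted p = 0.0541) and ZNF471 were not among them. With the exon GC trend removed 8 were called, as ZNF577 fell below 0.75, and ZNF766 missed the test (adjusted p = 0.0526). ZNF331, ZNF528 and ZNF418 were called, at the limit of 0.75, in every alternative fit in which they were tested, in this comparison and against control. At a minimum log2 fold change of 1, ZNF528 and ZNF418 alone were called against CBX1_W42A.

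Summed over the 99 members, the libraries held 1139, 1234 and 1213 CPM in the control group, 1505, 1501 and 1408 CPM with CBX1 and 1111, 1283 and 1125 CPM with CBX1_W42A. The means were 1195 ± 49.8, 1471 ± 55.1 and 1173 ± 95.3 CPM (SD, n = 3). The CBX1 libraries lay above the other 6, and those of the other groups overlapped. In bulk RNA, fewer cells with an RNA and less of it per cell cannot be told apart.

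The genes that act with KRAB proteins in silencing were read as a list of 13, all of them tested. None was enriched or depleted in any comparison. Against control, CBX1 libraries had 1 of the 13 higher and 2 lower at an adjusted p under 0.05, against 10.6% and 9.46% of all genes. The 1 higher was ATF7IP, the partner of SETDB1, with a log2 fold change of 0.52 ± 0.09 (SE, adjusted p = 0.00125). The 2 lower were HDAC2, a histone deacetylase, at -0.31 ± 0.09 (adjusted p = 0.0212), and FAM208A, a subunit of the HUSH complex, at -0.27 ± 0.09 (adjusted p = 0.0363), and the median of the 13 was 0.10. CBX1_W42A against control had 0 past the test, with a median of -0.12. CBX1 against CBX1_W42A had 2 higher and 0 lower, against 1.32% and 0.925% of all genes, with a median of 0.11. The 2 higher were ATF7IP, at 0.73 ± 0.11 (adjusted p = 0.000733), and SETDB1, at 0.47 ± 0.11 (adjusted p = 0.0327). TRIM28, which lies in the same distal region of chromosome 19, stood at 309 ± 23.8 CPM in control, 279 ± 15.3 CPM with CBX1 and 284 ± 23.5 CPM with CBX1_W42A (SD, n = 3).

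Of the marker genes read for the cell line, VIM, KRT8, KRT18 and NEFM stood at 49.99 to 615 CPM in every library and PAX2 at 4.07 to 10.6 CPM. Of markers of other cells, HBB had 0 counts and PTPRC at most 2 in any library, while ALB and MYH6 reached 2.78 and 1.05 CPM.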

How the data were processed

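Chrom-seq read pairs of 9 HEK293T libraries were used as counts per gene. According to the study's methods and the submitters' processing notes, the authors used FastQC 0.11.8 and fastp 0.23.1 on the reads, HISAT2 2.1.0 for alignment to hg19 and featureCounts 2.0.1 for counting on GENCODE v19 genes, and deposited raw counts, without normalization, for 57820 genes. The strand setting of the counting is not given in the sources used here. Of the per-sample columns, 0 were left unused. Groups came from the sample labels. The total count per library was 8379542 to 11082852, and within each group the counts of every pair of libraries differed by more than sampling noise (4.65 to 11.4 units of chi-square for each degree of freedom).

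Each comparison used the 6 libraries of 2 groups, TMM factors and edgeR's quasi-likelihood test (edgeR version 4.0.16, R version 4.3.3), fitted over all genes with more than 18 counts over those libraries, with Benjamini-Hochberg adjustment over all of them. The limits of an adjusted p under 0.05 and a log2 fold change of 0.75 follow the study's methods. Standard errors were derived as the size of the log2 fold change divided by the square root of the F statistic. CPM were scaled by TMM factors over the 9 libraries. DESeq2 (version 1.42.0), RLE factors, upper-quartile factors, the library size alone, no filter, filterByExpr, at least 10 counts in every library, one fit of all 9 libraries, a block for the replicate number, cyclic loess offsets, removal of the exon GC trend (lowess span 0.3), a minimum log2 fold change of 1 and leaving out each library were the alternatives. On counts simulated for CBX1 against control, where 200 genes out of 18837 were raised by log2 1.5, edgeR's test called 168 of the 200 and 7 unchanged genes, and with a change of log2 0.75 it called 126 and 9. These counts were drawn with edgeR's own estimates of spread, and all changes were upward. In the data 10.6% of genes passed as higher and 9.46% as lower. The simulation therefore checks the code and cannot give the rate of false calls in the data.

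Named members were ZNF331, the 12 with the smallest adjusted p among those enriched with CBX1, all depleted there, the 8 with the smallest adjusted p among those enriched with CBX1_W42A and among those called between the readers, the 5 highest per kb and the 5 most abundant that did not pass with CBX1. The members, lists and rules were chosen with earlier results of these data known. Exons, coding sequences and shared 100-base stretches came from GENCODE version 44 lifted to GRCh37. Coding sequences were translated from it, and fingers and the KRAB A box-like pattern, searched in the first 120 residues, were counted in the translation. In 3 members no usable coding sequence was read, ZNF274 among them. A marker gene of another cell type is not reported here.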

Additional observations from a re-analysis of the deposited data

Results flagged for a closer look

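The CBX1 and CBX1_W42A libraries differed in 9 members, by the direct test of one group against the other (edgeR's quasi-likelihood test, adjusted over all genes). The log2 differences, CBX1 over CBX1_W42A, were 0.96 for ZNF331, 2.11 for ZNF528, 0.90 for ZNF530, 1.73 for ZNF418, 0.76 for ZNF577, 0.96 for ZNF329, 0.78 for ZNF549, 0.76 for ZNF28 and 0.80 for ZNF471. In each of the 9, every CBX1 library was above every CBX1_W42A library, which held for 10.3% of all genes tested. The 9 were called on these same libraries, so their separation largely follows from the call and adds no further support.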

How the results depend on the processing

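The number of members enriched with CBX1 against control was 9 and lay between 6 and 13 over the alternatives, and between 8 and 11 without 1 library. The median log2 fold change of the members moved by less than the spread between libraries in each alternative. With scaling by upper quartiles or by library size only, the median of all genes rose to 0.11 and 0.12, and the members' median, at 0.42 in both, stood 0.31 above it in each. Against CBX1_W42A, the 9 members called became 2 at a minimum log2 fold change of 1 and 3 to 12 without 1 library, and the 15 at an adjusted p under 0.05 became 5 to 20 without 1 library. For CBX1_W42A against control no alternative called a member. In each alternative with fewer libraries, fewer samples entered the fit.

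Replicate numbers did not pair the libraries, since the correlations of same-numbered libraries' deviations from their group means were -0.0887 to 0.0781. With the replicate number as a block, 9, 0 and 9 members were enriched in the 3 comparisons and 17, 0 and 21 were higher at an adjusted p under 0.05. Among the members named by rule, the block ended the call of ZNF28 against control (adjusted p = 0.0571) and made ZNF606 pass against CBX1_W42A (adjusted p = 0.0128).

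Some named members changed sign where they passed the test in neither the reported fit nor the setting named. With CBX1 against control (log2 fold change), ZNF160 went from -0.034 to 0.049 (upper-quartile factors), 0.054 (library size alone), 0.011 (at least 10 counts in every library) and 0.023 (cyclic loess), and ZNF787 from -0.04 to 0.042, 0.048, 0.0046 and 0.072 in the same settings. ZNF579 went from 0.042 to -0.036 (cyclic loess) and -0.029 (exon GC), and from -0.1007 to 0.15 without 1 library. ZNF304 went from 0.00013 to -0.0042 (DESeq2), -0.00505 (RLE), -0.0022 (no filter), -0.017 (9 libraries in one fit), -0.00261 (cyclic loess) and -0.016 (exon GC), and from -0.11 to 0.097 without 1 library, and ZNF324 from -0.016 to 0.24. With CBX1_W42A against control, ZNF787 went from 0.039 to -0.066 (exon GC), and from -0.068 to 0.1005 without 1 library. ZNF304 went from -0.017 to 0.072 (upper-quartile), 0.059 (library size), 0.00276 (filterByExpr), 0.021 (at least 10 counts) and 0.000125 (cyclic loess), and from -0.14 to 0.0696 without 1 library. ZNF530 went from -0.046 to 0.043 (upper-quartile) and 0.031 (library size), and from -0.22 to 0.14 without 1 library. ZNF606 went from 0.1003 to -0.036 (cyclic loess), and from -0.00934 to 0.30 without 1 library. Without 1 library ZNF418 lay between -0.67 and 0.22 and ZNF549 between -0.011 and 0.39. With CBX1 against CBX1_W42A, ZNF473 went from -0.023 to 0.016 (library size) and 0.017 (cyclic loess), and from -0.13 to 0.14 without 1 library. ZNF304 went from -0.0092 to 0.012 (upper-quartile), 0.0303 (library size), 0.00312 (filterByExpr), 0.0105 (at least 10 counts) and 0.00782 (9 libraries in one fit), and from -0.12 to 0.13 without 1 library. Without 1 library ZNF579 lay between -0.34 and 0.00135, ZNF787 between -0.15 and 0.00434 and ZNF444 between -0.0478 and 0.16. The cause of these changes was not tested. By the adjusted p alone, and over the members named by rule (which leaves out ZNF471), 288, 300 and 275 of the other values kept their direction and side of the threshold in the 3 comparisons. An adjusted p under 0.05 was lost in 9 and gained in 3 with CBX1 against control, and lost in 25 and gained in 4 with CBX1 against CBX1_W42A. ZNF606 against control and ZNF530 and ZNF577 against CBX1_W42A also fell below 0.75 in some settings while they still passed by adjusted p, and ZNF471 was called against CBX1_W42A in 11 of 17 alternatives.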
